A study of Mus musculus with 7 samples.

Results

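Cathepsins are the proteases of the lysosome, and cystatin C, encoded by Cst3, is the secreted protein that blocks those of the cysteine class. The 10 genes described here are 9 cathepsins (Ctsk, Ctsd, Ctsb, Ctsl, Ctss, Ctsz, Ctsc, Ctsh and Ctsa) and Cst3, taken by symbol from a table of 26143 named genes. All 10 were found, and all 10 were among the 12759 genes with enough reads to be tested. Alveolar macrophages, which live in the air spaces of the lung and clear what is inhaled, were sorted from C57BL/6 mice aged 4 months for RNA sequencing. The 4 wild-type (WT) libraries were compared with 3 Cish KO (KO) libraries. The Cish protein belongs to the SOCS family, is switched on by STAT5 after cytokine stimulation, and damps that signal. How the deletion was made, and in which cells, is not given in the sources used here.

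Most of these cathepsins are made as inactive precursors, tagged with mannose 6-phosphate, carried to the lysosome and activated there by acid and by cleavage. Cathepsins K, B, L, S, Z, C and H are cysteine proteases of the papain family, cathepsin D is an aspartic protease, and cathepsin A is a serine carboxypeptidase. In macrophages they digest what has been taken up, prepare antigens for MHC class II, and, when secreted, cut elastin and collagen. Cystatin C acts mainly outside the cell, where it holds escaped cysteine cathepsins in check.

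Libraries held between 26780291 and 34483612 reads. Reads of Cish were fewer in every KO library, at 10.9 to 14.3 CPM (read counts scaled to library size with TMM factors) against 29.6 to 67.9 in WT (adjusted p 0.0519 in edgeR and 2.81e-11 in DESeq2). On the first principal component of all genes (42.6% of the variance), WT libraries 1 to 3 ranged from -39.4 to -24.1 and the KO libraries from 18.3 to 43.9, while WT 4 stood at 7.27. WT 4 and KO 3 also come after all other columns in the deposited table, though the labels name no batch; results are given without them where that changes a call. All 14 alveolar macrophage markers were tested, with a summed level of 24840 to 57550 CPM in WT and 47300 to 81720 in KO (raw library sizes), mostly Chil3 (29771 and 59845 CPM). Of the 14, 5 had log2 fold changes below 0, among them Siglecf (559 and 420 CPM), Fcgr1 (58.0 and 41.8) and Ear1 (771 and 596), which were lower without overlap and called by DESeq2. The other 9 were above 0, among them Mrc1 (515 and 630 CPM), higher without overlap and called by DESeq2. Before adjustment, edgeR p was below 0.05 for 4 that were higher and 3 that were lower (9.15% and 8.85% of all genes). Of other cells, fibroblast markers (5 genes) summed to 1.02 to 5.87 CPM in WT and 1.86 to 11.3 in KO, dendritic cell markers to 17.0 to 20.5 and 9.75 to 24.3, and neutrophil markers to 31.0 to 58.1 and 26.2 to 46.2, with Ly6g at 0. Interstitial macrophage and monocyte markers summed to 534 to 862 CPM in WT and 572 to 1102 in KO, B cell markers to 4.13 to 9.92 and 4.33 to 19.4, and red cell markers to 13.0 to 353 and 277 to 808. Endothelial markers were low but narrowly higher in every KO library, at 11.2 to 16.55 CPM in WT and 16.58 to 30.5 in KO. All 5 had log2 fold changes above 0 with an unadjusted p below 0.05 in edgeR (higher in KO for 9.15% of all genes). DESeq2 called 3 of them (5.71% of its genes) and edgeR 0. The summed markers of T and NK cells, mostly Cd2, were lower in every KO library (634 to 688 CPM in WT, 477 to 534.0 in KO). The other 8 tested had log2 fold changes above 0, among them Klrb1c at 0.154 and 2.34 CPM, called by DESeq2. Also lower in every KO library was the sum for epithelium (305 to 483 and 211 to 299). Of 9 tested genes in that list, only Epcam and Napsa had log2 fold changes below 0. Lower in every KO library as well was the sum for the eosinophil and mast cell list (59.0 to 70.9 and 25.4 to 33.1). That last sum was mostly Siglece (63.7 and 28.9 CPM), which edgeR called (adjusted p 0.00565). Cpa3, the other tested gene of that list, had a log2 fold change of 0.16. Prg2 and Epx had 5 and 2 reads over all libraries, and Mcpt4 and Tpsb2 had 0. Nothing in the labels ties each library to a separate mouse, so the tests speak only of the spread from library to library. In such bulk samples a change in the number of some cells and a change in RNA per cell cannot be told apart.

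**Figure D1:**
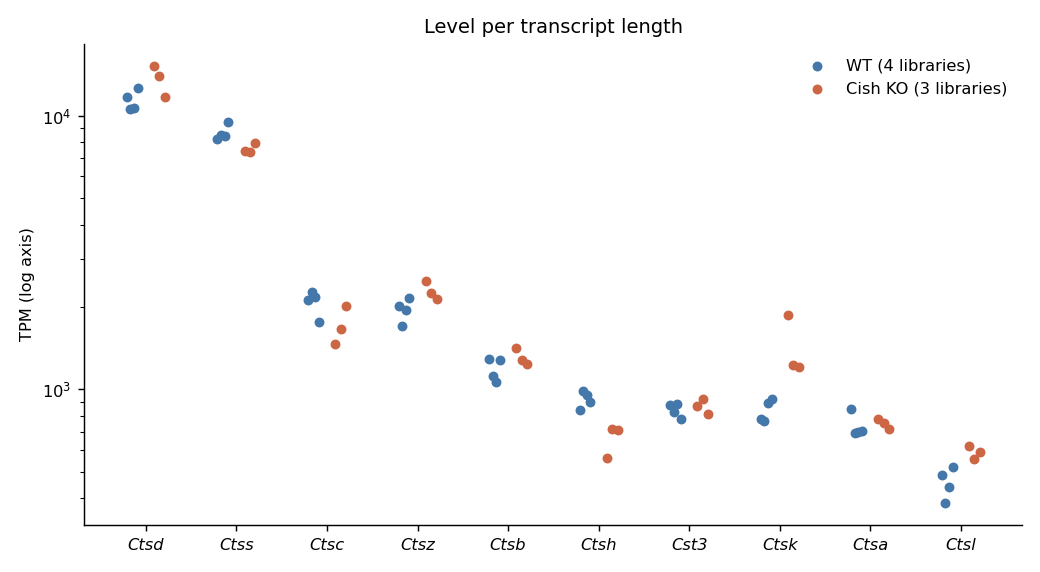
Level of each member per transcript length, in TPM (length-scaled share of transcripts, log axis), with a point for each of the 4 WT and 3 KO libraries. Ctsd and Ctss lie above all other members in every library; the KO points of Ctsk lie above its WT points and those of Ctsh below.

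Per transcript length, Ctsd was the most abundant of the 10, at 11365 TPM ± 989 (SD, n = 4) in WT libraries and 13614 ± 1758 (SD, n = 3) in KO libraries. It ranked 5 or 6 among 11538 tested genes with a known transcript length in every library. Ctss came next at 8653 TPM ± 554 in WT and 7570 ± 329 in KO, between ranks 7 and 9. In WT the order then ran through Ctsc (2083 TPM), Ctsz (1955), Ctsb (1191), Ctsh (922), Cst3 (841.3), Ctsk (841.2), Ctsa (736) and Ctsl (458). Of these WT neighbours, Ctsc and Ctsz overlapped between libraries, as did Ctsh and Cst3, Cst3 and Ctsk, and Ctsk and Ctsa. In KO, Ctsk reached 1432 TPM, its libraries overlapping those of Ctsc (1713) and Ctsb (1314), and Ctsh was below Ctsa, with overlap. Ctsl had the lowest mean in both genotypes and still ranked between 199 and 403, but in KO its libraries overlapped those of Ctsh, which was the lower in KO 1. Some levels depend on the transcript assumed: over all annotated exons in place of the longest RefSeq-matched transcript, Ctsl was at 149 TPM in WT, still the lowest, and Ctsc at 1279, below Ctsz.

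Sequence is shown for 5 members that differ in their motifs: the 250 bases before the RefSeq start site for Ctsk and Ctsc, and a short site for Ctsd, Ctsl and Ctsa, each with 10 bases on either side of an E-box (mouse build GRCm38.p6, 5′ to 3′ on the gene's strand). Capitals mark the E-box CACGTG, the core of the element bound by the lysosomal regulator TFEB and its relatives, and TTCNNNGAA, the element bound by STAT5.
Ctsk (chr3:95498960-95499209, plus strand): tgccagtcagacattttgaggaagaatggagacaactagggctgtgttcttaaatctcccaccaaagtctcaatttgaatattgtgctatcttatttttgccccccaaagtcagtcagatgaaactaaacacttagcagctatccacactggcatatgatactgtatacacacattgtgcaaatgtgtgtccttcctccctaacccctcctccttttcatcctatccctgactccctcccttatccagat
Ctsc (chr7:88277835-88278084, plus strand): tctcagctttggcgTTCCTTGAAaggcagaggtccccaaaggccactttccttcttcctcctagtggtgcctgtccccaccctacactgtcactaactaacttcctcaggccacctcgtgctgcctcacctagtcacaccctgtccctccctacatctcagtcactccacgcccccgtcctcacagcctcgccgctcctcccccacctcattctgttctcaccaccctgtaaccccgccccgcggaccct
Ctsd (chr7:142387910-142387935, minus strand, E-box at -98): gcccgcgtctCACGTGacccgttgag
Ctsl (chr13:64370741-64370766, minus strand, E-box at -236): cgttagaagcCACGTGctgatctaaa
Ctsa (chr2:164833751-164833776, plus strand, E-box at -12): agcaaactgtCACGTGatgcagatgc

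RefSeq gave windows of 300 bases (250 before and 50 after the start) for 8 of the 10 members, the exceptions being Ctsb and Ctsh. CACGTG, searched on both strands, was in the windows of Ctsd (at -245 and -98 from the start), Ctsl (-236) and the second start of Ctsa (-12 and 5), and in 7.15% of all 32851 windows. TTCNNNGAA was in the window of Ctsc alone among the 8 (-236), and in 8.30% of all windows. The longer palindromic CLEAR motif around the E-box was searched only as an exact match to all its letters. In that form it was in 0.326% of all windows and in none of the members' windows. The E-boxes of Ctsd at -98 and of Ctsa at -12 and 5 missed it only at an outermost base. Those of Ctsd at -245 and of Ctsl differed from it more. Near matches were not counted over all windows, so how common they are was not tested. GAGGAAGT, a site of the macrophage factor PU.1, lay on the reverse strand in the windows of Ctss (-2) and Ctsc (-151), and in 3.20% of all windows. The Ctsk window held none of these 4 motifs. Start sites differ between annotations: the 250 bases before the RefSeq start lie wholly inside the GENCODE gene for Ctsl and the second start of Ctsa, and 211 of them do for Ctsd, so these E-boxes are not all upstream of the GENCODE start. A match says only that the letters are there.

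Between the genotypes, Ctsk and Ctsl were higher in every KO library than in every WT library, and Ctsh was lower. By edgeR 0 of the 10 members were called at an adjusted p below 0.05, in a comparison that called 11 of 12759 genes (0.0862%). Before adjustment, p was below 0.05 for 5 members (18.0% of all genes), of which 4 were higher in KO (Ctsk, Ctsl, Ctsd and Ctsz; 9.15% of all genes) and 1 lower (Ctsh; 8.85%). The genotypes did not overlap for 3 of the 10, against 16.0% of all genes. DESeq2 called 2 members (5.71% of its genes), Ctsk higher (2.68%) and Ctsh lower (3.02%). The log2 fold change was above 0 for 7 members, with a median of 0.17 over the 10 and of 0.0030 over all genes tested.

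**Figure D2:**
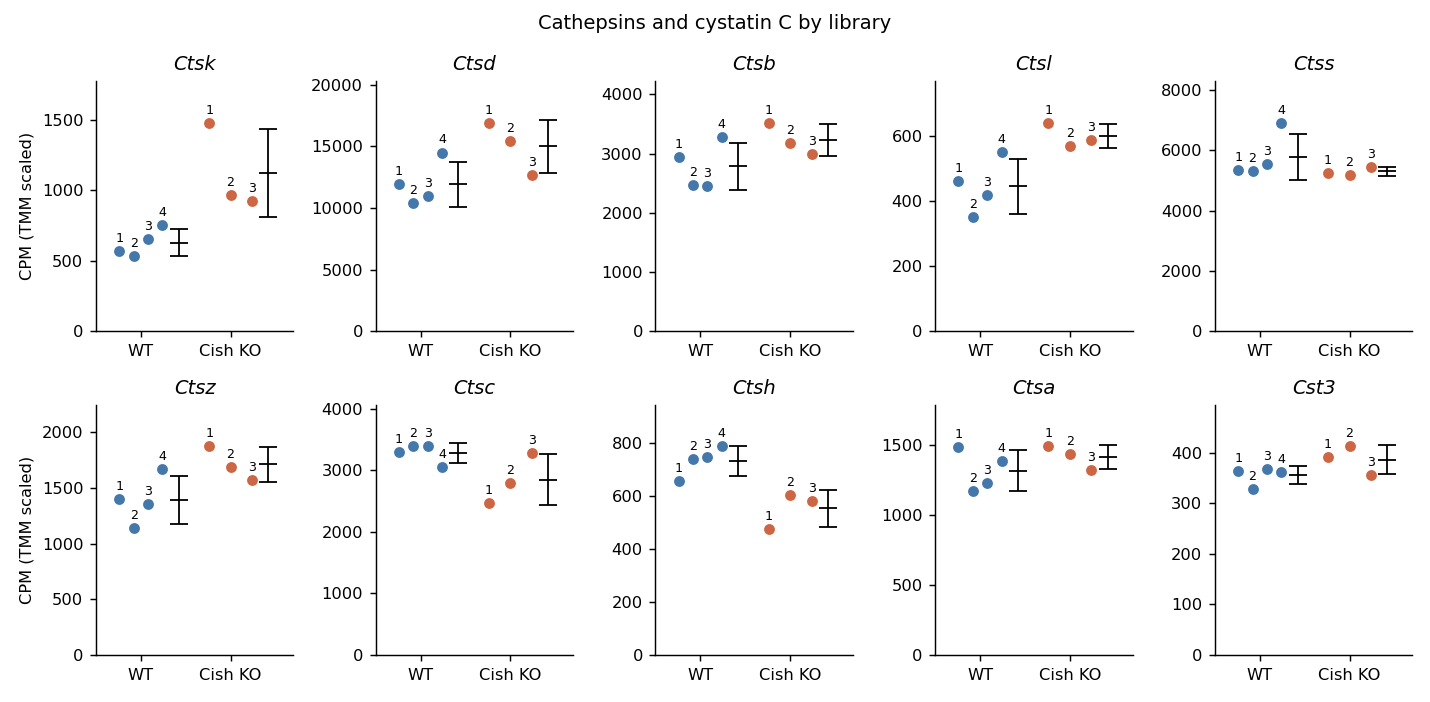
CPM (TMM scaled, axis from 0) of each member in each library, numbered by replicate, with the mean and SD of each genotype beside the points. Ctsk and Ctsl are higher and Ctsh lower in all 3 KO libraries than in any WT library; for the other 7 members the genotypes overlap.

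Ctsk encodes cathepsin K, the collagen-cutting protease best known from osteoclasts, which also cuts elastin. It lies on chromosome 3 (95499256 to 95509362, 8 exons, GENCODE M21 on GRCm38). Its level was 570, 536, 653 and 754 CPM in WT 1 to WT 4 and 1479, 965 and 923 CPM in KO 1 to KO 3. The groups did not overlap, and KO 1 stood well above the other KO libraries. The means were 628 CPM ± 97.3 (SD, n = 4) and 1122 ± 309 (SD, n = 3), a 1.79-fold difference. On the log2 scale this was 0.84 (SE 0.18, 95% interval 0.43 to 1.24), and the adjusted p was 0.0950 in edgeR and 0.000435 in DESeq2. Without KO 1 it was 0.59 (edgeR adjusted p 0.368). It passed edgeR without WT 4 (0.94, adjusted p 0.0477), without KO 3 (0.96, 0.0459) and without both (1.06, 0.0245), in which 2.25%, 1.67% and 4.57% of all genes were called. Fibroblasts also express Ctsk, and Col1a1, which defines them, had 0.642 CPM in WT and 1.59 in KO; any share of Ctsk reads from such cells was not tested.

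Ctss, encoding cathepsin S, lies 17423 bases downstream of Ctsk on the same strand (chromosome 3, 95526786 to 95556403). Cathepsin S keeps its activity at neutral pH and removes the invariant chain from MHC class II. Its level was 5352, 5323, 5550 and 6914 CPM in WT and 5262, 5185 and 5460 in KO. WT 4 stood apart from the other WT libraries, and the genotypes overlapped. The log2 fold change was -0.13 (SE 0.11, 95% interval -0.37 to 0.12, edgeR adjusted p 0.580), and it was -0.03 without WT 4. In TPM, which is scaled differently, all KO libraries (7344 to 7948) lay below all WT libraries (8209 to 9463). Within each library there were 0.101 to 0.118 reads of Ctsk per read of Ctss in WT and 0.281, 0.186 and 0.169 in KO, a ratio that no scaling changes. The ratio of these neighbouring genes did not overlap between the genotypes.

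Cathepsin L, encoded by Ctsl (chromosome 13, 64359337 to 64370890, 8 exons), is a strong endopeptidase that also takes part in invariant chain removal. Its level was 462, 351, 419 and 553 CPM in WT and 642, 570 and 589 in KO. All KO libraries lay above WT 4, the highest WT library, but KO 2 exceeded it by little. Its log2 fold change of 0.43 (SE 0.14, 95% interval 0.11 to 0.75) had adjusted p values of 0.170 in edgeR and 0.0619 in DESeq2. Without WT 4 it was 0.55 (edgeR adjusted p 0.0516).

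Cathepsin H, the product of Ctsh, trims peptides from their amino end and is also abundant in type 2 cells of the alveolar epithelium, where it helps to mature surfactant protein B. Ctsh was at 655, 738, 749 and 787 CPM in WT and 475, 602 and 583 in KO. It was lower in every KO library, with means of 732 CPM ± 55.6 (SD, n = 4) and 553 ± 68.8 (SD, n = 3). The log2 fold change of -0.40 (SE 0.11, 95% interval -0.65 to -0.16) had adjusted p values of 0.121 in edgeR and 0.0156 in DESeq2. The 10 markers of type 2 and airway epithelium summed to 305 to 483 CPM in WT and 211 to 299 in KO, lower in every KO library. Epcam, the most abundant of them in WT, had 209 CPM in WT (135 to 302) and 43.8 in KO (9.24 to 92.6) without overlap (edgeR adjusted p 0.143). Napsa had 94.1 and 64.2 CPM with overlap. Only Epcam and Napsa, of the tested markers in the list, had log2 fold changes below 0. The sum without Epcam was not computed. Of 9 tested markers in that list 7 had log2 fold changes above 0, among them Cdh1 (31.0 and 49.4 CPM) and Sftpc, which defines type 2 cells, at 12.9 to 47.2 CPM in WT and 19.2 to 69.5 in KO. The part of epithelial RNA in the difference of Ctsh was not tested. Ctsh lies on chromosome 9 (90054152 to 90076089, 12 exons), 17.2 Mb from Cish; whether the sequence between them differs between the mice was not tested.

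**Figure D3:**
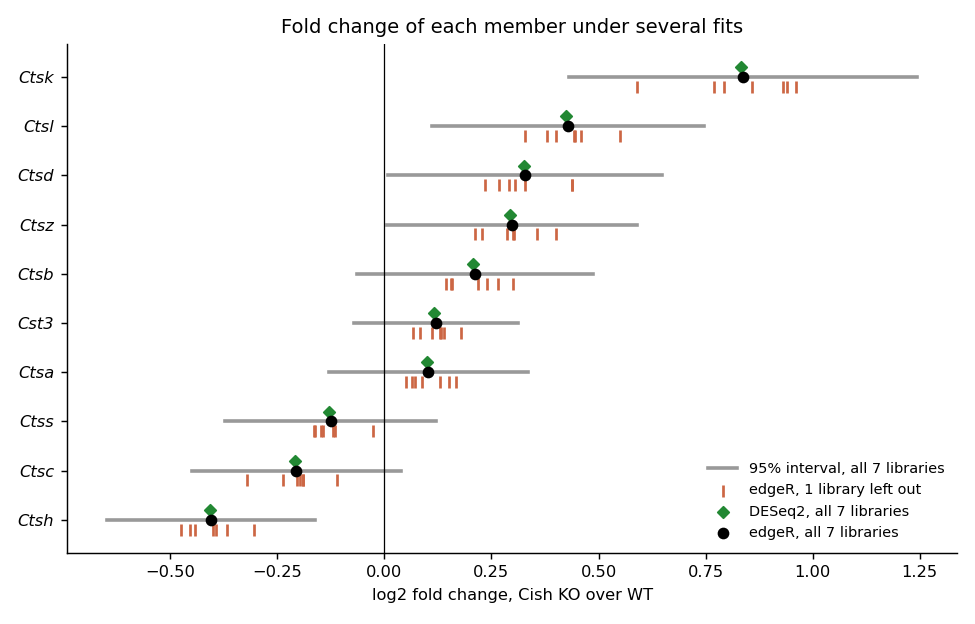
Log2 fold change of each member, KO over WT: black points are edgeR on all 7 libraries with 95% intervals in grey, red ticks edgeR fits with 1 library left out, green diamonds DESeq2. The intervals of Ctsk, Ctsl, Ctsd, Ctsz and Ctsh leave out 0, and no tick crosses it.

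Ctsd encodes cathepsin D, the main aspartic protease of the lysosome (chromosome 7, 142375911 to 142388038). Its level was 11919, 10365, 10966 and 14500 CPM in WT and 16918, 15440 and 12638 in KO. KO 1 and KO 2 lay above all WT libraries, and KO 3 lay below WT 4. Ctsd had a log2 fold change of 0.33 (SE 0.14, 95% interval 0.0096 to 0.65, edgeR adjusted p 0.265). It ranged from 0.24 (without KO 1, adjusted p 0.674) to 0.44 with 1 library left out. Of 16 alternatives it was called only without WT 4 and KO 3 together, an alternative added later (0.55, edgeR adjusted p 0.0386).

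Ctsb and Ctsz also had higher means in KO, with overlap. Ctsb encodes cathepsin B, which cuts both within proteins and dipeptides from their carboxyl end; it ranged from 2456 to 3276 CPM in WT and from 2986 to 3520 in KO. Ctsz encodes cathepsin Z, a carboxypeptidase, and ranged from 1136 to 1671 CPM in WT and from 1568 to 1873 in KO. Their log2 fold changes were 0.21 (95% interval -0.06 to 0.49, edgeR adjusted p 0.397) and 0.30 (0.0054 to 0.59, adjusted p 0.269). In both, WT 4 was the highest WT library and KO 3 the lowest KO library.

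Ctsc encodes cathepsin C, the dipeptidyl peptidase that activates the serine proteases of neutrophils and cytotoxic lymphocytes (chromosome 7, 88278085 to 88310888). Its level was 3297, 3388, 3387 and 3057 CPM in WT and 2463, 2795 and 3283 in KO. KO 1 and KO 2 lay below all WT libraries, while KO 3 lay within the WT range. Ctsc had a log2 fold change of -0.21 (SE 0.11, 95% interval -0.45 to 0.04, edgeR adjusted p 0.355), and it was not called in any of 16 alternatives. It was -0.11 without KO 1 (adjusted p 0.784), -0.32 without KO 3 (0.162) and -0.35 without WT 4 and KO 3 (0.109). Of 7 listed genes for granule proteins, among them proteases it activates, 2 were tested, both at low levels. Gzma had means of 0.815 and 1.12 CPM (WT and KO). Gzmb had 0.220 and 0.949 CPM, overlapping (log2 fold change 2.09, edgeR adjusted p 0.226). The listed genes of neutrophils were almost without reads: Elane had 1 read over all 7 libraries, Mpo 9, Ctsg 2 and Prtn3 11.

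Ctsa and Cst3 had small differences between the genotypes. Ctsa encodes cathepsin A, which also protects neuraminidase and beta-galactosidase in a shared complex; it ranged from 1172 to 1488 CPM in WT and from 1321 to 1492 in KO (a log2 difference of 0.10, 95% interval -0.13 to 0.33, edgeR adjusted p 0.632). On the opposite strand, overlapping Ctsa, lies Pltp, with 292 CPM in WT and 215 in KO (chosen after its values were seen). These libraries do not keep the strand, so reads from bases that both genes of such a pair share cannot be told apart. Ctsb with Fdft1 (33.3 and 39.9 CPM) and Ctsz with Nelfcd (45.2 and 37.1) are pairs of the same kind. The overlaps were taken from whole gene spans, and how many exon bases are shared was not measured. Cst3 (chromosome 2, 148871722 to 148875692) was at 364, 328, 368 and 361 CPM in WT and 391, 412 and 355 in KO. KO 3 lay within the WT range and the other KO libraries above it. The log2 fold change of Cst3 was 0.12 (SE 0.08, 95% interval -0.07 to 0.31, edgeR adjusted p 0.487). With 1 library left out it ranged from 0.067 (without KO 2) to 0.178 (without KO 3), and that of Ctsa from 0.051 (without WT 2) to 0.166 (without WT 1).

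The libraries took similar places across members. WT 4 was the highest WT library for 7 of the 10 (Ctsk, Ctsd, Ctsb, Ctsl, Ctss, Ctsz and Ctsh) and the lowest for Ctsc. KO 1 was the highest of all 7 libraries for 6 members (Ctsk, Ctsd, Ctsb, Ctsl, Ctsz and Ctsa) and the lowest for Ctsc and Ctsh. KO 3 lay within the WT range for 7 members, KO 2 for 2 and KO 1 for 0. The same counts over all genes were not made, so these places are not shown to be particular to the members. On the first principal component of all genes, WT 4 (7.27) also lay closest to KO among the WT libraries. There KO 3 (18.3) lay closest to WT among the KO libraries, and KO 1 (43.9) farthest.

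**Figure D4:**
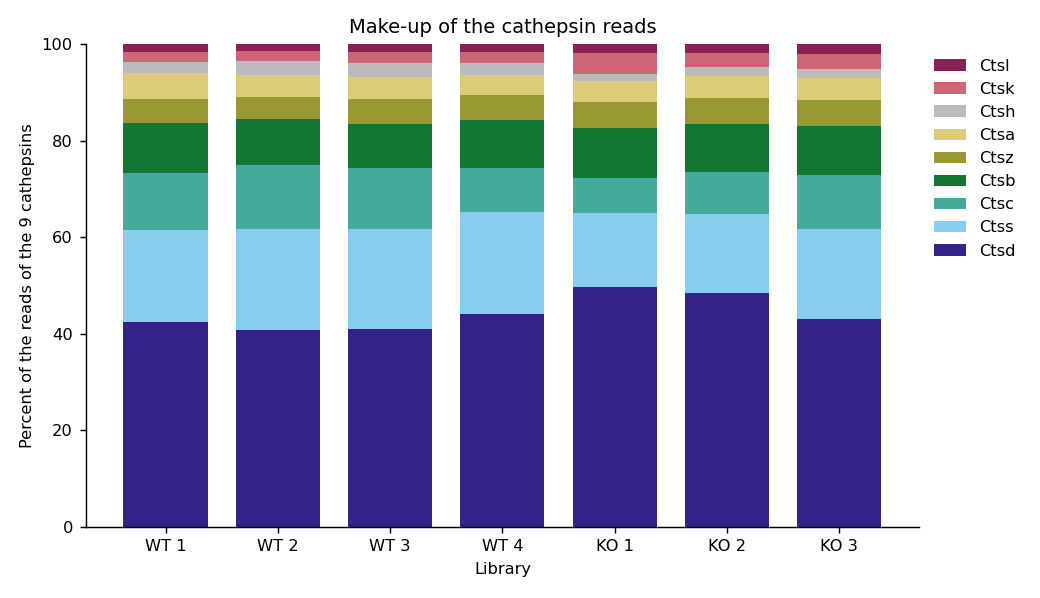
Share of each cathepsin in the summed reads of the 9 cathepsins, in percent, for each library. The Ctsk segment is 2.03 to 2.44% in WT and 3.03 to 4.33% in KO, and the Ctss segment is smaller in every KO library than in any WT library.

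As a pool, the 9 cathepsins took 2.85% ± 0.225 (SD, n = 4) of all reads in WT and 3.10% ± 0.218 (SD, n = 3) in KO, with overlap (2.66 to 3.15% and 2.90 to 3.34%). Their summed level was 28308 CPM ± 3240 in WT and 31778 ± 2387 in KO. Within the pool, Ctsk held 2.22% ± 0.186 of it in WT and 3.50% ± 0.722 in KO, Ctsl 1.57% and 1.89%, and Ctsz 4.90% and 5.38%. Ctss held 20.4% ± 0.923 in WT and 16.8% ± 1.64 in KO, and Ctsh 2.60% and 1.76%. For these 5 the genotypes did not overlap, and the shares of a pool cannot move independently. No like share over all genes was computed to set beside this count. In CPM, the genotypes did not overlap for 3 of the 10 members, against 16.0% of all genes. The largest segment, Ctsd, held 40.7 to 44.1% in WT and 43.1 to 49.6% in KO. Per 1000 cathepsin reads there were 12.6 ± 1.17 reads of Cst3 in WT and 12.2 ± 0.734 in KO, with overlap.

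Other genes of the same system were counted from lists of their relatives. In these lists edgeR called 1 gene, Mmp8. Over all 12759 genes tested, 6448 log2 fold changes were above 0 and 18.0% of genes had an unadjusted p below 0.05. DESeq2 called 5.71% of its genes. Of 14 other cathepsins 4 were tested, and 1 had an unadjusted p below 0.05. This was Ctsf, a further papain-family protease, at 43.5 CPM ± 2.23 in WT and 32.2 ± 3.06 in KO without overlap (log2 fold change -0.44, SE 0.09, adjusted p 0.0950 by edgeR and 0.00421 by DESeq2). Ctso had 115 and 99.3 CPM (edgeR adjusted p 0.376). Of 30 inhibitors 9 were tested, 8 with a log2 fold change above 0, 4 with p below 0.05 before adjustment and 1 that DESeq2 called (Ctla2a). Of those 4, 3 were higher in KO (Serpinb6b, Serpina3g and Ctla2a, each below 3 CPM in both genotypes) and 1 was lower (Serpinb1a). Cstb, the cystatin that works inside the cell and the most abundant of them, was at 494 to 587 CPM in WT and 554 to 756 in KO (edgeR adjusted p 0.309). Serpinb1a, an inhibitor of neutrophil proteases, had 284 CPM in WT and 238 in KO (adjusted p 0.219).

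Other lysosomal peptidases had 8 of 12 log2 fold changes above 0, a median of 0.15 and 4 unadjusted p below 0.05 (18.0% of all genes). Legumain, encoded by Lgmn, cuts after asparagine and matures several cathepsins. It was at 390, 292, 312 and 498 CPM in WT and 609, 507 and 593 in KO. The groups did not overlap, though KO 2 was close to WT 4 (a log2 difference of 0.61, SE 0.18, adjusted p 0.136 by edgeR and 0.0180 by DESeq2). Dpp7, a dipeptidyl peptidase, had 151 and 193 CPM (edgeR adjusted p 0.141). The 29 tested genes of sorting and activation had a median of 0.01, 15 above 0, with 5 unadjusted p below 0.05, near the share of all genes (18.0%), and 0 calls by DESeq2. Among them were Tfeb, at 100 CPM ± 11.6 in WT and 77.6 ± 7.90 in KO without overlap (-0.37 on the log2 scale, edgeR adjusted p 0.149), the sorting adaptor Gga1, at 99.2 and 83.9 CPM (0.178), and Psap, the saposin precursor, at 4569 and 5203 CPM (0.555). The partners of cathepsin A, Neu1, Glb1 and Galns, all had log2 fold changes below 0 (-0.04, -0.62 and -0.31). Glb1 was at 55.5 and 58.7 CPM in WT 2 and WT 3 and at 26.0 to 28.5 in the other 5 libraries.

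**Figure D5:**
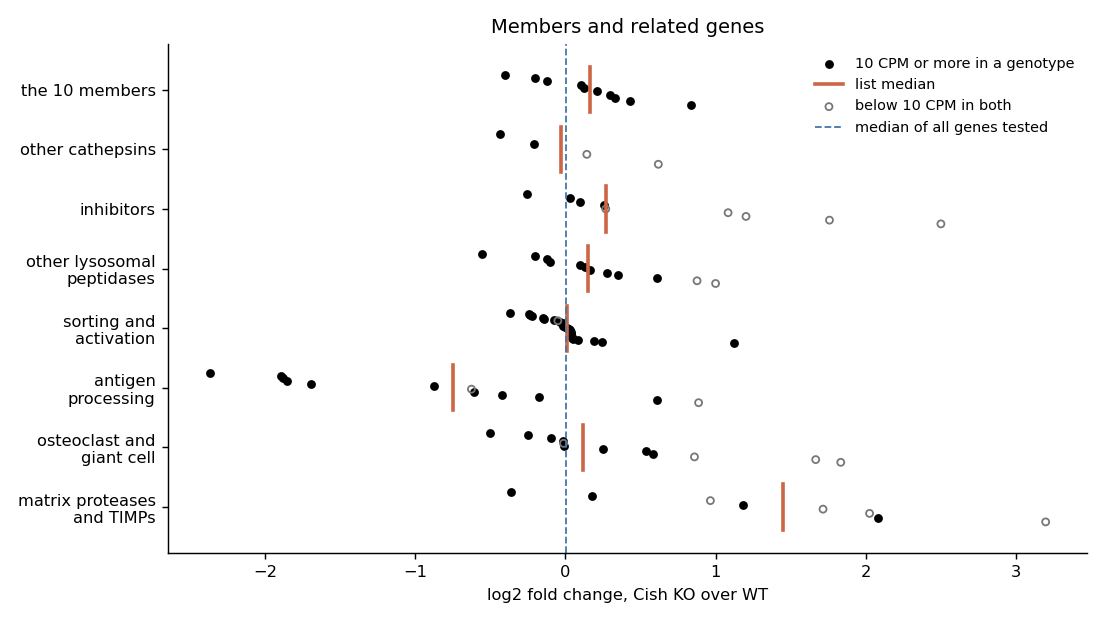
Log2 fold changes (KO over WT) of the tested genes of each list, filled where a genotype reached 10 CPM, with the list median in red and the median of all genes tested as a dashed line. The antigen processing list has the lowest median, -0.75, and the sorting and activation list lies near the median of all genes.

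Cathepsins S and L can take part in antigen presentation by MHC class II. Of 12 genes of this process, all tested, 10 had log2 fold changes below 0, with a median of -0.75. Before adjustment p was below 0.05 for 9 (8 lower in KO, and Lgmn higher), against 18.0% of all genes. DESeq2 called 9, against 5.71% of its genes. The genotypes did not overlap for 8 of the 12, against 16.0% of all genes. Cd74, the invariant chain that cathepsin S cuts, averaged 3537 CPM in WT libraries and 1094 in KO libraries (-1.69, edgeR adjusted p 0.130). Its genotypes overlapped, with WT 1 at 1710 CPM below KO 3 at 1858. Ciita, which switches the class on, had 13.9 and 2.70 CPM (-2.36, adjusted p 0.0950), and the peptide exchange chain H2-DMb1 had 281 and 153 CPM (-0.87, adjusted p 0.0950). Beside these, the log2 fold changes of Ctss and Ctsl were -0.13 and 0.43.

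The osteoclast and giant cell genes, the setting in which Ctsk is best known, went both ways, with 6 of 12 above 0 and a median of 0.12. Tnfrsf11a, the RANK receptor, averaged 17.0 CPM in WT libraries and 12.0 in KO libraries without overlap (-0.50 on the log2 scale, adjusted p 0.124 by edgeR and 0.0248 by DESeq2). Spi1, encoding PU.1, had 757 and 637 CPM without overlap (edgeR adjusted p 0.201). Atp6v0d2, a proton pump subunit shared by osteoclasts and alveolar macrophages, had 1968 and 2338 CPM (0.228). Among matrix proteases and their inhibitors 7 of 8 log2 fold changes were above 0, with a median of 1.45. Mmp8, a collagenase, was called (69.5 CPM in WT, 158 in KO, edgeR adjusted p 0.0427). The median rests partly on genes with few reads: Mmp13 (0.149 CPM in WT, 1.38 in KO), Timp1 (0.293 and 1.21), Mmp14 (0.894 and 1.74) and Timp3 (0.884 and 2.92). Of these, Mmp13 and Timp1 did not overlap between the genotypes. Among the more abundant genes, Mmp19 (73.6 and 83.3 CPM, log2 fold change 0.18) overlapped. Timp2 was lower in KO, also with overlap (89.2 and 69.4 CPM, -0.36). Mmp12, the macrophage elastase, reached 470 CPM in WT 4 and 1065 in KO 3, against 13.0 to 24.4 in the other WT libraries and 512 and 79.1 in KO 1 and KO 2. WT 4 lay above KO 2 and close to KO 1, so the genotypes overlapped (log2 fold change 2.08, edgeR adjusted p 0.426).

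The genes most like Ctsk over the 7 libraries, by Pearson's r of log2 CPM among 7864 candidates, were Myo5a (0.984), Prickle2 (0.980), Slc31a2 (0.979), Ik (0.978) and Ankrd17 (0.977). Myo5a, a myosin that carries vesicles, had 25.5 CPM in WT and 86.0 in KO (edgeR adjusted p 0.0718). Slc31a2, a copper transporter homologue, had 105 and 165 CPM (0.107). The genes most like Cst3 were Spp1 (0.973), Gabarapl1 (0.965), Tbc1d17 (0.963), Tbccd1 (0.953) and Trafd1 (0.952). Spp1, encoding osteopontin, had 1898 CPM in WT and 2660 in KO (edgeR adjusted p 0.184). These r describe 7 libraries that share their genotype differences, and taken within genotypes they were 0.913 to 0.946 for the Ctsk set and 0.926 to 0.969 for the Cst3 set. The genes were picked as the highest of 7864 candidates over few libraries, so values this high can arise from the picking alone. The values within genotypes come from the same genes and libraries and are no separate check.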

How the data were processed

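RNA of the sorted cells, extracted with a Zymo kit, went into Nextera XT libraries, which do not mark strand, per the labels' protocols. The authors deposited raw counts of reads for each gene, which the table's own name credits to rsubread; the submitters' processing notes name mm10 and DESeq2. The annotation and the treatment of multiply mapping reads are not given in those sources. Rows with no symbol (1036 of 27179, 0.376% to 0.424% of reads) were left out of tests.

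KO was compared with WT on genotype alone in R 4.3.3 by edgeR 4.0.16 (filterByExpr, TMM, quasi-likelihood F test, Benjamini-Hochberg over all 12759 genes, threshold 0.05). Intervals of log2 fold changes use the test's SE and 9.12 degrees of freedom. TPM used GENCODE M21 transcripts matched to RefSeq. DESeq2 1.42.0, limma 3.58.1 and other scalings, filters and left-out libraries were alternatives. The edgeR script was tested on simulated data. The labels name no molecular identifiers. The members and lists were chosen with earlier results of these data known. Named are all members, Cish, and of each list the called genes or otherwise the 2 with the smallest p at 10 CPM or more, with the most abundant. Ctla2a, the neutrophil granule genes listed with Ctsc, Gzmb, the overlapping genes, Klrb1c, Siglecf, Fcgr1, Ear1, Napsa, Cdh1, Sftpc, Col1a1 and Ly6g were named after their values were seen. The same holds for Mrc1, Mmp13, Mmp14, Mmp19, Timp1, Timp2, Timp3, Serpinb6b, Serpina3g, Prg2, Epx, Cpa3, Mcpt4 and Tpsb2. Same-numbered libraries were checked for pairing and were not paired.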

Additional observations from a re-analysis of the deposited data

Results flagged for a closer look

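Of 22 quantities examined in the 4 WT libraries, 4 had a library whose gap to its nearest neighbour passed Dixon's critical share of the whole WT range; chance alone gives about 1 in 20. The Ctss level of WT 4 was 6914 CPM (gap 0.857 of the range), above 5323 to 5550 in the other WT libraries. The Cst3 level of WT 2 was 328 CPM (0.835), below 361 to 368. The Ctss share of cathepsin reads was 19.1% in WT 1 (0.853), below the other WT libraries and still above all KO libraries. The Ctsz share was 4.46% in WT 2 (0.844), against 4.98 to 5.08% in the others.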

How the results depend on the processing

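All 160 log2 fold changes of the 10 members (16 alternatives each) kept their direction, and 9 passed the threshold that was missed in the main edgeR fit. Genes called numbered 11 at first, 753 by DESeq2 (354 higher, 399 lower), 397 with no filter, 21 with the stricter filter (5 CPM in 3 libraries), 46 by limma voom with quality weights, 430 with the replicate block and 590 without WT 4 and KO 3 (added after seeing the data); leaving out each library in turn gave 7 (without WT 1) to 284 (without WT 4), and 217 without KO 3. Members called numbered 2 by DESeq2, 1 with no filter, 2 with the replicate block, 2 without WT 4 and KO 3, and 0 to 1 with each library left out. Past the threshold was Ctsk by DESeq2 (0.83), with no filter (0.82) and with the replicate block (0.91). Ctsk also passed without WT 4 (0.94), without KO 3 (0.96) and without both (1.06). The others were Ctsh by DESeq2 (-0.41), Ctsl with the replicate block (0.56) and Ctsd without WT 4 and KO 3 (0.55). With each library left out, Ctsk ranged from 0.59 to 0.96. The cause of these differences was not tested. Same-numbered libraries did not deviate together (r of -0.0083, 0.142 and -0.0173 for numbers 1 to 3), not every library correlated best with its own number, and WT 4 has no partner in the block. Summed cathepsin CPM and Cst3 per 1000 cathepsin reads moved by less than their SD where recomputed, the sum with library-size and RLE scaling and both with each library of the genotype left out. Each member had at least 9649 reads in every library.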
